A study of Mus musculus with 73 samples.

Results

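The sites described here are 1180 FoxA binding sites whose DNA methylation was lower in hepatocytes that had lost Foxa1 and Foxa2 in adulthood than in control hepatocytes. They make up 4.12% of the 28654 sites, each 400 bp long, that whole-genome bisulfite sequencing (WGBS) measured in all 6 of its libraries. A site was taken when the higher of the 2 adult nulls lay at least 5 percentage points below the lower of the 2 controls, when it was absent from the authors' deposited list of hyper-methylated sites, and when the mean of the 2 developmental nulls minus the control mean was above -15 points. All 6 WGBS libraries therefore took part in the choice, and their levels at these sites are given as a description with no test. Overlapping sites were kept as separate entries, so that 231 of the sites overlapped another and the 1180 sites formed 1056 separate regions.

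Foxa1 and Foxa2 are forkhead transcription factors of the liver that can bind their sites in closed chromatin and open it for other factors, and Foxa3 is another member of the family. Methylation of the cytosine in a CpG is copied when DNA is replicated, can be removed actively or by dilution through divisions, and is commonly low where transcription factors occupy an enhancer. HNF6 is a liver transcription factor of the Onecut class that binds many hepatocyte enhancers together with FoxA proteins.

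Of 73 samples, all from mouse liver, 6 WGBS, 27 reduced representation bisulfite sequencing (RRBS) and 7 HNF6 chromatin immunoprecipitation (ChIP) libraries are used here. In WGBS, hepatocytes isolated on a Percoll gradient came from 2 adult nulls, 2 developmental nulls and 2 controls, and every one of these mice carried loxP-flanked Foxa1 and Foxa2 (Foxa1L/L;2L/L). Adult nulls received an AAV8 virus with Cre under the hepatocyte promoter Tbg at 8 weeks and were taken 1 month later. Developmental nulls carried the Alfp Cre transgene and, like the controls without Cre, were 8 weeks old. Adult nulls were thus older than their controls, which per the labels are not described as having received a virus, so that genotype, virus and age cannot be told apart in WGBS.

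RRBS libraries have liver as their labelled tissue, and their protocol names hepatocyte DNA as the input; how those cells were prepared is not given. Triple nulls were taken 7 days (3 libraries, 9 weeks old) or 13 days (2 libraries, 12 weeks old) after Cre, with 3 and 2 controls of the same ages that had received GFP, carried loxP-flanked Foxa1 and Foxa2 and also lacked Foxa3 (FoxA3-/-). Adult double nulls after partial hepatectomy (3 libraries) stood against 2 livers given AAV GFP and the same operation, all at 12 weeks. An age series had 1 developmental null and 1 control at each of 20 days, 8 weeks, 4 months and 6 months, and 2 libraries each came from developmental FoxA1L/L;FoxA2L/+ and FoxA1L/+;FoxA2L/+ livers at 8 weeks. HNF6 ChIP came from the livers of 2 adult nulls, 2 developmental nulls and 3 controls with the alleles, Cre and ages of the WGBS groups. The labels give no genotype for the controls of the age series and of the hepatectomy. No file used here measures Foxa transcripts or hepatocyte markers, so deletion and purity were not checked. A methylation level is a share over all cells of a sample, so a partial change in every cell and a full change in some cells cannot be told apart. No read coverage comes with the methylation tables, and the depth of a level is not known. The labels do not say that numbered samples are separate animals, and p-values then measure only the spread between these samples.

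Mean WGBS methylation over the 1180 sites was 17.9% in both adult null libraries, 27.3% and 27.5% in the developmental nulls, and 28.6% and 29.5% in the controls. The adult null libraries agreed closely in this mean and lay far below the other 4, which for the controls the rule required. The developmental nulls lay just under the controls. Group means were 17.9% ± 0.0095 in adult nulls, 27.4% ± 0.158 in developmental nulls and 29.1% ± 0.627 in controls (SD, n = 2 each). The median site was at 10.4% and 10.1% in the adult nulls, 20.5% and 20.7% in the developmental nulls, and 20.6% and 21.9% in the controls. At other unlisted sites with a control mean between 10% and 50%, means were 22.1% ± 0.269 in adult nulls, 27.2% ± 0.0517 in developmental nulls and 24% ± 1.69 in controls (SD, n = 2 each).

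**Figure D1:**
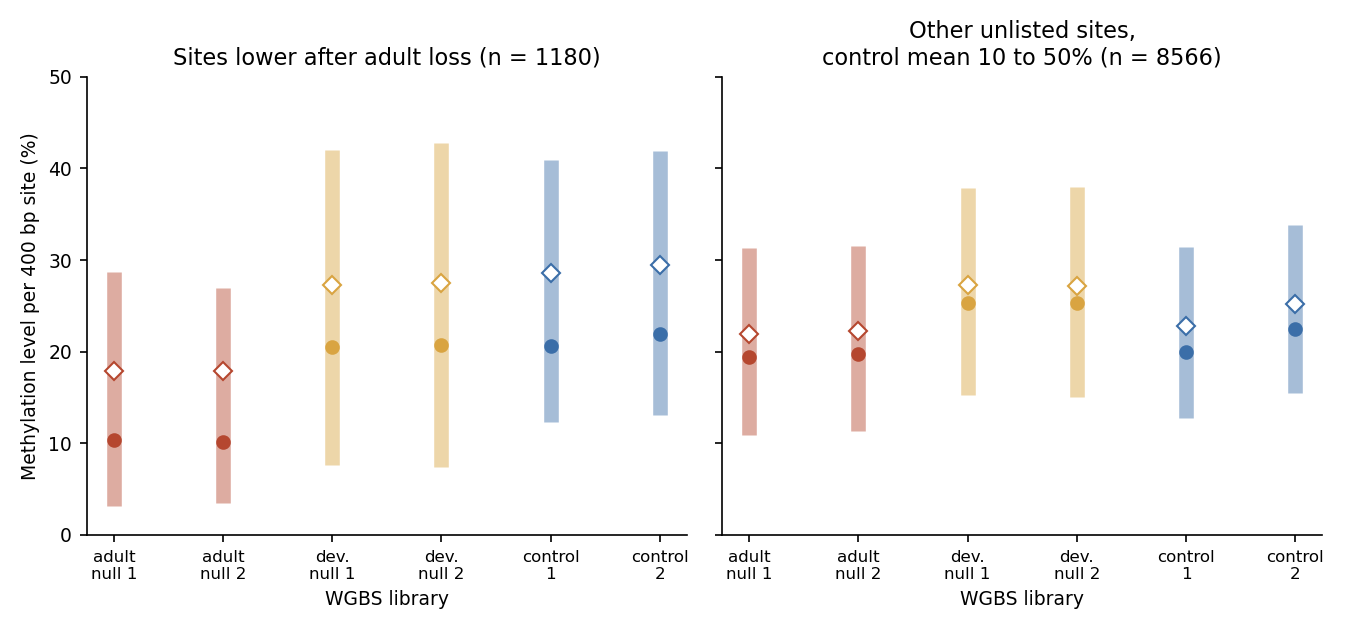
WGBS methylation per 400 bp site in each library, for the 1180 sites lower after adult loss (left) and for 8566 other unlisted sites with a control mean of 10% to 50% (right). Bars span the middle quartiles over sites, filled circles are medians and open diamonds are means; on the left the adult null medians sit at 10.4% and 10.1%, below the medians of the other 4 libraries.

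Adult nulls minus controls had a median of -10.2 points over the sites, with quartiles of -12.7 and -8.26, against a median of -1.25 over all sites. At least 5 points separated adult nulls below controls at 1338 sites in all (4.67%), of which 74 were in the authors' list and 84 more fell outside the developmental limit. The same separation upwards, adult nulls above controls, was met at 545 sites (1.9%). Sites were thus selected from a distribution in which every adult null lay below every control at 28% of all sites and above every control at 10.2%. At 592 of the sites the adult null mean was no more than 50% of the control mean, and at 64 sites both adult nulls were listed at 0.

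A few sites stood far apart from the rest, since only 13 had a separation of at least 20 points and 197 one of at least 10 points. The site with the widest separation, chr9:50308817-50309216 (mm9, as are all positions), was at 10.3% and 17.1% in the adult nulls, 65.5% and 74.2% in the developmental nulls, and 66.4% and 67.0% in the controls. There the developmental nulls overlapped the controls in level and the higher adult null lay 49.3 points below the lower control. The site chr17:67231232-67231631 was at 0% in both adult nulls, 21.3% and 61.8% in the developmental nulls, and 37.5% and 41.8% in the controls. Its developmental nulls spanned the controls on either side.

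At chr13:54771881-54772280 the adult nulls were at 19.3% and 20.5%, the developmental nulls at 45.9% and 31.7%, and the controls at 46.3% and 50.7%. At chr8:116617306-116617705 levels were 33.6% and 32.8% in the adult nulls, 74.1% and 59.9% in the developmental nulls, and 58.1% and 61.0% in the controls. At chr6:145749915-145750314 they were 23.5% and 24.5% in the adult nulls, 49.4% and 46.0% in the developmental nulls, and 45.8% and 45.6% in the controls. In these 3 sites replicate adult nulls agreed within a few points and none of them overlapped a developmental null. The site chr17:53794207-53794606 differed from them: its adult nulls were at 1.69% and 2.42%, its developmental nulls at 1.48% and 29.3%, and its controls at 23.3% and 27%, so 1 developmental null was as low as the adult nulls.

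Not every wide separation rested on close replicates. At chr4:126794155-126794554 the adult nulls were at 54.0% and 18.6%, the developmental nulls at 93.5% and 89.5%, and the controls at 79.7% and 89.8%. At chr10:91600314-91600713 the adult nulls were at 14.8% and 19.6%, the developmental nulls at 53.8% and 72.7%, and the controls at 81.3% and 46.2%. Replicates lay far apart in the adult nulls at the first, and in the controls and, less so, the developmental nulls at the second. The last of the 10 widest, chr9:113704945-113705344 and chr12:111460171-111460570, had adult nulls at 36.1% and 46.2% and at 44.8% and 42.0%, against controls at 76.6% and 70.7% and at 75.9% and 67.8%. Over all 1180 sites the median gap between replicates was 1.94 points in adult nulls, 4.42 points in developmental nulls and 2.82 points in controls, against 2.89, 3.32 and 3.58 points over all 28654 sites. The rule favours sites where the adult nulls lie close together and the controls do too. The smaller gaps in those groups are therefore partly set by the choice of sites.

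Values next to the threshold were small in most cases. The 3 sites just inside it included chr12:111392389-111392788, with both adult nulls at 0% against controls at 5.00% and 8.96%, and chr13:36559561-36559960, with both adult nulls at 0% against controls at 8.33% and 5.00%. The other was chr4:62051331-62051730, at 3.57% and 2.33% in adult nulls and 16.0% and 8.57% in controls. The 3 sites just outside were separated by 4.997, 4.996 and 4.992 points, and the first of them, chr15:96840855-96841254, had adult nulls at 33.6% and 30.5% against controls at 39.9% and 38.6%.

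The sites covered the range of control methylation from 5% upwards, and 48.2% of them had a control mean under 20%, against 65.4% of all FoxA sites. The control mean was under 20% at 569 sites, 20% to 50% at 418, 50% to 80% at 160, and 80% or more at 33. Between 10% and 20% control methylation 9.04% of all measured sites qualified, the highest share of any level, while 1.66% qualified between 5% and 10% and 2.60% at 80% or more. No site under 5% could qualify, since the required separation is as large. The most methylated member, chr6:5335464-5335863, was at 91.4% and 93.2% in adult nulls and 100% in both controls, and the least methylated, chr5:145133065-145133464, was at 0% in both adult nulls against 5.26% and 5.88% in controls. The median difference was -7.06 points for control levels of 5% to 10% and -13.0 points for 60% to 80%.

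The developmental nulls lay on both sides of the controls at these sites, below them at 789 and above them at 391 by group mean. Developmental null minus control had a median of -3.26 points, with quartiles of -6.66 and 2.00, against a median of 1.02 over all sites. The rule bounds this difference from below at -15 points, and the absence from the authors' list bounds it from above, since no site reached 20 points, so its size beside the adult difference is largely set by the choice of sites. Both developmental nulls lay below both controls at 491 sites, or 41.6% (15% of all sites). They lay above both controls at 200, or 16.9% (33.6% of all sites), and the groups overlapped at the other 489. The same 2 controls enter the rule and this difference, and the rule favours sites where both are high. These shares are therefore also partly set by the choice of sites. All sites include the 2267 listed sites, which could not be members and all had developmental nulls above controls by group mean.

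The 2 ends of that range show how different the developmental nulls could be. At chr11:23160349-23160748 the adult nulls were at 5.21% and 4.55%, the developmental nulls at 32.6% and 42.4%, and the controls at 14.5% and 20.8%, so adult and developmental nulls lay on opposite sides of the controls. At chr4:47076512-47076911 the order was the same, with adult nulls at 10.6% and 7.14%, developmental nulls at 30.2% and 49.5%, and controls at 19.8% and 20.8%. At the other end, chr19:7267135-7267534 was at 2.94% and 6.25% in adult nulls, 0% in both developmental nulls, and 18.4% and 11.5% in controls. At chr12:79692749-79693148 the adult nulls, at 33.0% and 30.5%, and the developmental nulls, at 29.8% and 32.8%, overlapped each other below controls at 45.6% and 46.5%.

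**Figure D2:**
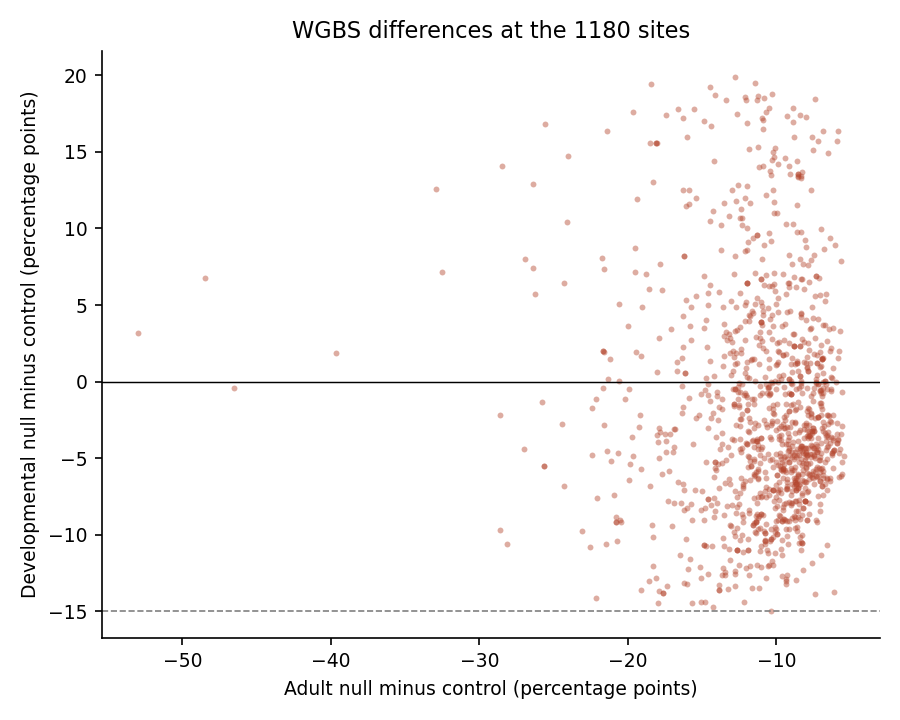
WGBS differences from the control mean at each of the 1180 sites, adult nulls on the x axis and developmental nulls on the y axis, in percentage points. The dashed line is the limit of -15 points set by the rule; the adult differences have a median of -10.2 points, and the developmental differences lie on both sides of 0 with a median of -3.26.

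The sites were spread over chromosomes 3 to 19, the chromosomes held by both WGBS tables. They made up between 3.25% of the measured sites on chromosome 11 and 6.16% on chromosome 17. Within 2000 bp of another member lay 249 of them, or 21.1%, and most of these were the 231 overlapping sites (19.6% of the members). Of the other unlisted sites 2.78% lay as close to a member, and 1.36% lay within 400 bp of it and so overlapped it. Overlapping sites share sequence, so their levels are not independent. The median distance between a member and the nearest other one was 252696 bp. The distance to the nearest FoxA site of any kind, with a median of 1358.5 bp, was near that over all sites, 1269.5 bp. Within 2000 bp of a site in the authors' list lay 3.31% of the members and 3.38% of the other unlisted sites.

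RRBS gave a measurement the choice of sites had not used. It reports levels in 100 bp tiles, and 155 tiles lay wholly inside 1 of the sites, in 106 sites when a tile within overlapping sites is counted for 1 of them. Of these tiles 17 had no value in any library and 50 had a value in all 27. The tile table is not even across libraries, with 445198 to 622668 of its 817277 tiles measured in each. Each comparison used the tiles measured in every one of its libraries, and the moderated test of limma was adjusted by the Benjamini-Hochberg method over all of them, with calls at an adjusted p under 0.05.

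At 7 days after Cre, triple null livers had lower methylation than their Foxa3-lacking controls at most tiles inside the sites, and no single tile passed the test. Over 77 tiles, in 50 sites, the mean level was 15.8%, 15.1% and 15.6% in the triple nulls and 18.5%, 18.9% and 20.8% in the controls. All 3 triple nulls lay below all 3 controls. Group means were 15.5% ± 0.361 in triple nulls and 19.4% ± 1.22 in controls (SD, n = 3 each). The difference was below 0 at 66 tiles and above 0 at 11, with a median of -4.62 points against 0.01 over all 480615 tiles tested.

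None of the 77 tiles was called by limma, against 20 of all tiles (0.00416%). The spread of the adult tests pools all RRBS groups and takes the ages of the age series as replicates, so change with age adds to it. With spread from the 2 compared groups only, 0 tiles of any kind were called. At an unadjusted p under 0.05, 10 of the 77 member tiles were then lower, against 13258 of all 480615 tiles, and 0 were higher, against 14447. In the main fit 4 of the 77, or 5.19%, were lower at that p and 0 higher. The lower share was 1.80% of all tiles and 8.07% in other unlisted sites with a control mean of 10% to 50%. These 4 tiles were singled out after their values were seen. The tile chr10:94030801-94030900 was at 3.08%, 3.03% and 6.58% in triple nulls and 10.9%, 18.8% and 13.2% in controls, a difference of -10.1 ± 3.34 points (SE, limma adjusted p = 0.99). The tile chr4:33344501-33344600 was at 2.34%, 2.21% and 2.78% in triple nulls and 8.70%, 6.10% and 9.90% in controls. In both tiles the groups did not overlap. At chr4:104802001-104802100 levels were 0%, 0% and 3.70% in triple nulls and 2.56%, 10.1% and 9.52% in controls, and at chr7:108487801-108487900 they were 3.03%, 2.00% and 1.75% in triple nulls and 18.8%, 2.63% and 19.2% in controls. At the first of these the groups overlapped, and at the second 1 control lay within the range of the triple nulls.

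Lower values at day 7 were not limited to these sites. Every triple null lay below every control at 9 of the 77 tiles, or 11.7% (4.55% of all tiles), and above every control at 0 (5.11% of all tiles). At 805 tiles in other unlisted sites with a control mean of 10% to 50%, 70.3% of differences were below 0, their median was -2.35 points, and every triple null lay below every control at 17.5%. In the authors' listed sites the median over 132 tiles was -1.64 points, and over tiles more than 2000 bp from any FoxA site it was 0.05 points. The difference between the members and these classes was not tested.

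At 13 days after Cre the same direction was smaller, and its median over tiles depended on 1 control library. Over 71 tiles, in 47 sites, the mean level was 17.7% and 17.3% in triple nulls and 20.1% and 19.0% in controls, so the groups did not overlap. The difference was below 0 at 45 tiles and above 0 at 25, with a median of -1.39 points against -0.01 over all 442000 tiles. The median was -2.63 points in the authors' listed sites and -1.79 points in other unlisted sites with a control mean of 10% to 50%, where 62.2% and 61.5% of tiles were below 0, against 63.4% of the member tiles. Without control replicate 1 the median was 0.02 points, and without triple null replicate 1 or 2 it was -2.37 and -2.78 points. No member tile was called by limma, against 33 of all tiles (0.00747%). At an unadjusted p under 0.05, 2 member tiles were lower, or 2.82% (2.59% of all tiles).

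Of those 2 tiles, chr4:33344401-33344500 was at 2.63% and 0% in triple nulls and 10.0% and 9.38% in controls. It adjoins the tile named above for day 7 and lies in the same site. The other, chr3:30260301-30260400, was at 0% and 4.08% in triple nulls and 6.67% and 15.4% in controls. In neither tile did the groups overlap, and both were singled out after their values were seen. Every triple null lay below every control at 16 of the 71 tiles, or 22.5% (15.6% of all tiles), and above every control at 7, or 9.86% (12.9% of all tiles). In other unlisted sites with a control mean of 10% to 50% the first share was 22.0% of 764 tiles. Of 65 member tiles tested at both times, 38 were lower at both, or 58.5%, against 24.9% of all tiles tested at both.

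In livers that had lost Foxa1 and Foxa2 in adulthood and then regrown after partial hepatectomy, the sites showed no common direction. Over 82 tiles, in 56 sites, the mean was 18.6%, 19.9% and 20.5% in adult nulls and 22.4% and 17.4% in controls. The 2 controls lay on either side of the 3 adult nulls. The difference was below 0 at 40 tiles and above 0 at 41, with a median of 0.12 points against 0 over all 482859 tiles and 0.01 in other unlisted sites with a control mean of 10% to 50%. The median ran between -1.79 and 1.58 points when 1 control was left out. No member tile was called by limma, against 9 of all tiles (0.00186%). At an unadjusted p under 0.05, 1 member tile was lower, or 1.22% (2.30% of all tiles). Of the 82 member tiles 3 were higher, against 11424 of all 482859 tiles.

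Of those 4, which were singled out after their values were seen, chr4:33344501-33344600 was at 8.16%, 14% and 12.6% in adult nulls and 4.72% and 6.25% in controls, a difference of 6.11 ± 2.61 points (SE). This is the tile that was lower in the day 7 triple nulls. The tile chr3:30260301-30260400 was at 6.35%, 17% and 12.0% in adult nulls and 23.1% and 15.1% in controls, with overlapping groups. At chr3:30165901-30166000 adult nulls were at 23.8%, 26.3% and 23.3% and controls at 20.0% and 2.86%, and at chr3:52350101-52350200 adult nulls were at 23.0%, 13.1% and 20.8% and controls at 15.5% and 5.95%. Every adult null lay below every control at 12 tiles, or 14.6% (9% of all tiles), and above every control at 4, or 4.88% (8.69% of all tiles).

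**Figure D3:**
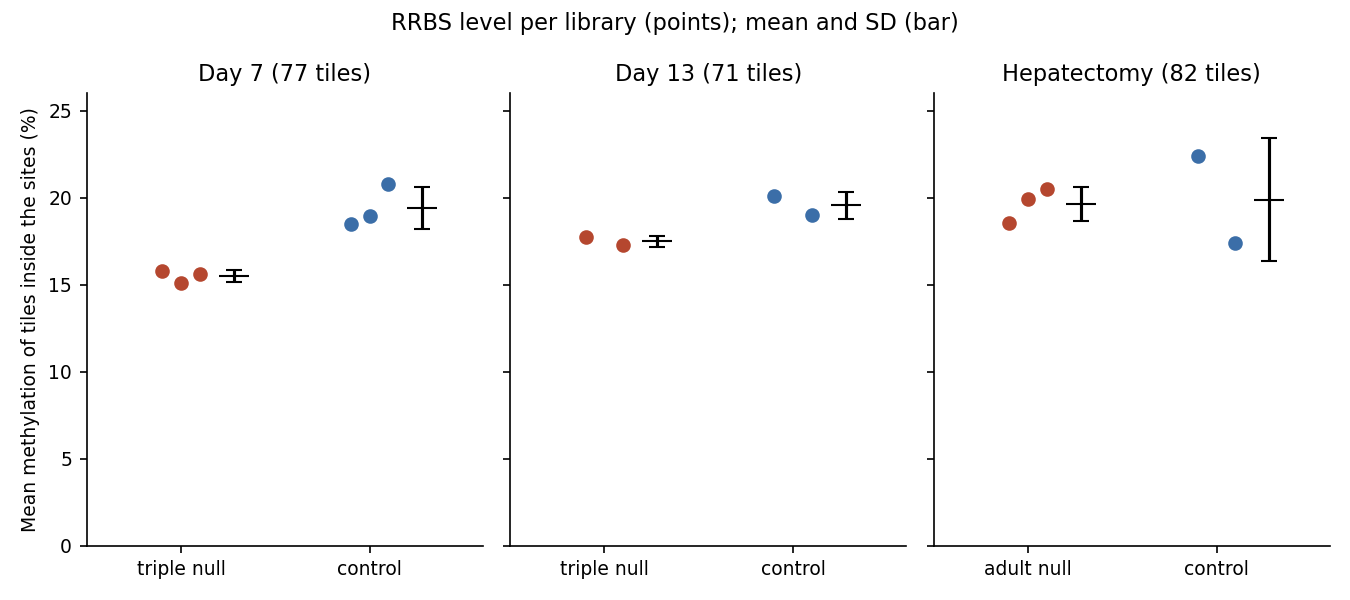
Mean RRBS methylation in percent over the 100 bp tiles inside the sites, 1 point per library, with triple or adult nulls left of their controls and the group mean and SD as a bar beside the points. At day 7 the triple nulls lie between 15.1% and 15.8% and the controls between 18.5% and 20.8%; after hepatectomy the controls lie at 22.4% and 17.4%, on either side of the adult nulls.

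The site with the widest WGBS separation had 1 tile tested in these 3 comparisons, chr9:50309001-50309100. It was at 6.25%, 11.1% and 0% in day 7 triple nulls and 10.7%, 17.5% and 32.1% in their controls. At day 13 it was at 0% and 10.7% in triple nulls and 5.56% and 0% in controls, and after hepatectomy at 9.09%, 0% and 0% in adult nulls and 37.5% and 9.68% in controls. Groups overlapped on day 7 and day 13 and not after hepatectomy. The mean of the 3 differences, -10.8 points, was the lowest of any of the 65 tiles tested in all 3 comparisons outside chromosome 18. These levels lay well under the WGBS control levels of the whole site. In the age series the tile was at 5.00%, 67.9%, 0% and 25.0% in controls at 20 days, 8 weeks, 4 months and 6 months, and had no value in 2 of the 4 developmental nulls, so that single libraries ranged from 0% to near the WGBS level.

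The next lowest means were -10.6 points at chr19:55116101-55116200 and -10.5 points at chr3:145563101-145563200. At chr19:55116101-55116200 day 13 triple nulls were at 0% and 4.76% against 28.6% and 18.2% in controls, and at chr3:145563101-145563200 they were at 15.4% and 0% against 18.2% and 40.7% in controls. The largest mean in the other direction, 8.87 points, was at chr12:3235401-3235500, where hepatectomy adult nulls were at 17.3%, 9.86% and 35.6% against 6.82% and 3.39% in controls. At day 7 the same tile was at 1.41%, 0% and 39.5% in triple nulls and 0%, 0% and 21.6% in controls, so replicate 3 was high in both groups. None of these tiles passed the limma test in any of the 3 comparisons.

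The site chr12:58545439-58545838 was lower in each adult comparison. It is named in part because the mean of the RRBS differences at its tile chr12:58545601-58545700, -7.30 points, was among the lowest. Its lower RRBS values are therefore partly fixed by the choice. In WGBS it was at 2.65% and 1.19% in adult nulls and 12.8% and 12.0% in controls. Its tile chr12:58545601-58545700 was at 8.70%, 0% and 14.3% in day 7 triple nulls and 14.3%, 7.69% and 20.0% in their controls. It was at 2.63% and 0% in day 13 triple nulls and 6.25% and 11.7% in their controls, and at 2.94%, 3.39% and 11.5% in hepatectomy adult nulls and 15.9% and 11.8% in their controls. The groups did not overlap at day 13 or after hepatectomy. The differences were -6.33, -7.64 and -7.92 points, and none passed the limma test (unadjusted p = 0.099, 0.105 and 0.067).

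Developmental nulls of the age series lay close to controls of the same age at these tiles. Over 59 tiles, in 39 sites, the mean level at 20 days was 36.1% in the developmental null and 35.8% in the control, and at 8 weeks it was 28.2% in the developmental null and 25.1% in the control. At 4 months it was 25.4% in the developmental null and 20.7% in the control, and at 6 months 22.7% in the developmental null and 21.6% in the control. The developmental null was thus the higher one at each age, by 0.27 to 4.75 points. All 4 developmental nulls lay below all 4 controls at 0 tiles (0.978% of all tiles) and above them at 3, or 5.08% (1.93% of all tiles). By tile the difference was above 0 at 29 and below 0 at 30, with a median of -0.09 points against 0.28 over all 369462 tiles.

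In the age series fit without age as a block, no member tile was called by limma, against 881 of all tiles (0.238%). At an unadjusted p under 0.05, 3 of the 59 member tiles were higher, a share no larger than the 20652 of all 369462 tiles. In the other direction 1 was lower, or 1.69% (3.18% of all tiles). Of the 3 higher tiles, 1 was at chr3:145563201-145563300. It was at 87.0%, 73.8%, 74.2% and 82.7% in developmental nulls at 20 days, 8 weeks, 4 months and 6 months, and at 69.4%, 66.0%, 46.2% and 54.0% in controls of those ages. All 4 developmental nulls lay above all 4 controls, and the difference was 20.5 ± 4.81 points (SE, limma adjusted p = 0.0873). The adjoining tile of the same site, chr3:145563101-145563200, differed by 7.04 ± 13.3 points (SE), and its groups overlapped. The tile chr3:145563201-145563300 was called without the 20-day control, with a difference of 24 points (limma adjusted p = 0.0259). In that setting 2 member tiles were called, against 1390 higher and 597 lower of all 369462 tiles. With the replicate number, which stands for the age, as a block the same 2 tiles were called, against 2149 higher and 1018 lower of all tiles. The adjusted p of chr3:145563201-145563300 was then 0.0257 by limma. The other 2 higher tiles lie on chromosome 18 and are not named here. The lower tile, chr5:45906601-45906700, was at 11.3%, 9.26%, 0% and 4.71% in developmental nulls by age and 35.8%, 11.3%, 22.9% and 9.09% in controls. Its neighbour in the same site, chr5:45906501-45906600, went the other way. That neighbour was at 75.9%, 72.7%, 55.6% and 54.2% in developmental nulls by age and 63.3%, 35.7%, 26.9% and 41.7% in controls. The 4 tiles at an unadjusted p under 0.05 were singled out after their values were seen. In the authors' listed sites the median difference was 21.8 points over 89 tiles, 21 of which were called.

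The mean over these tiles was highest at 20 days in both genotypes and lower than that at each later age. In controls 36 of the 59 tiles, or 61.0%, were higher at 20 days than at any later age, and in developmental nulls 25, or 42.4%, against 20.3% and 18.8% of all tiles. In controls the median difference was -8.33 points at 8 weeks against 20 days, -2.43 points at 4 months against 8 weeks, and 1.01 points at 6 months against 4 months. In developmental nulls the medians of the same 3 steps were -0.94, -1.54 and -2.60 points. Over all tiles the medians of these steps ran from -0.27 to 0.32 points. With 1 library for each age and genotype, age and library cannot be told apart at any single step.

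**Figure D4:**
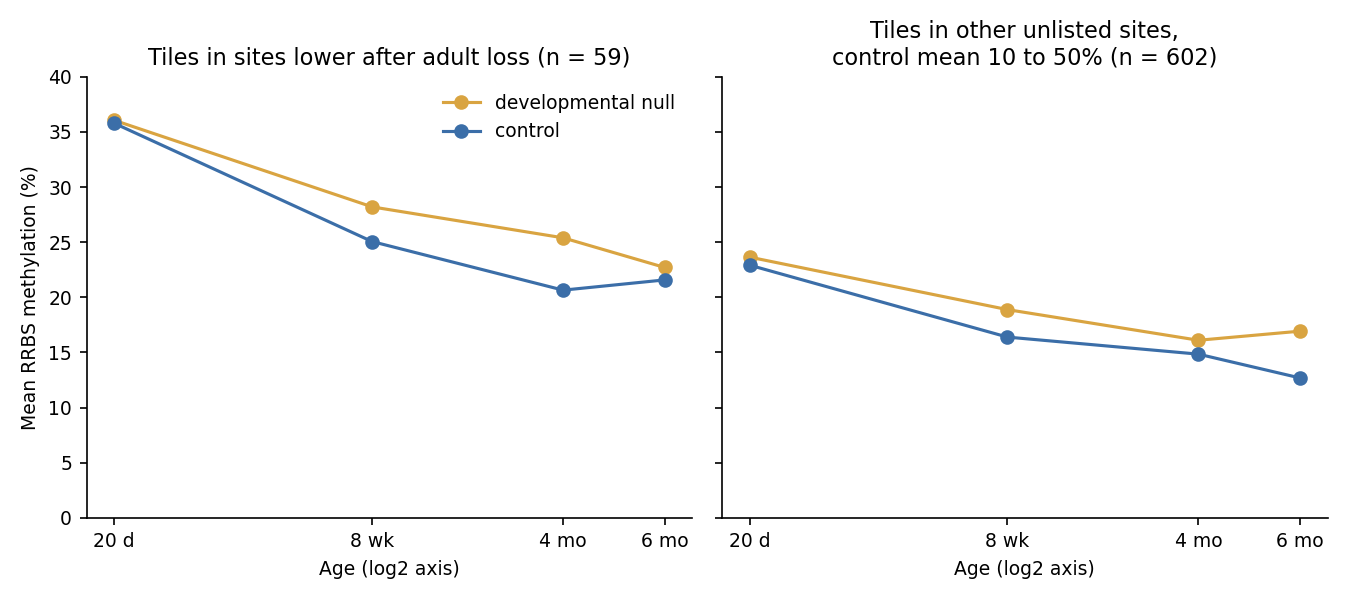
Mean RRBS methylation in percent against age on a log2 axis, 1 library per point, for 59 tiles inside the sites (left) and 602 tiles in other unlisted sites with a control mean of 10% to 50% (right). Inside the sites the developmental null goes down to 22.7% at 6 months and the control to 21.6%, against 36.1% and 35.8% at 20 days; the other sites also show their highest means at 20 days.

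The slope with age, fitted over the 8 libraries with genotype as a term and with a month taken as 30 days, had a median of -1.73 points per doubling of age over the 59 tiles, against 0.10 over all tiles. It was below 0 at 46 tiles and above 0 at 13. Similar slopes were found at other FoxA sites, with a median of -3.62 points over 89 tiles in the authors' listed sites and of -1.40 points over 602 tiles in other unlisted sites with a control mean of 10% to 50%. No tile of any kind was called by limma (0% of 369462), and 20 member tiles, all falling with age, had an unadjusted p under 0.05. Those 20 are 33.9% of the member tiles, and the share was 36.0% in listed sites, 26.9% in the other sites of 10% to 50% and 3.9% of all tiles. When only tiles with a mean level of 5% to 95% were fitted, 10 of 55 member tiles, or 18.2%, fell with age at an adjusted p under 0.05 (0.722% of all tiles) and 0 rose (0.0753% of all tiles). These 10 tiles lie in 8 sites. In other unlisted sites with a control mean of 10% to 50%, 24 of 521 tiles, or 4.61%, fell, and in the authors' listed sites 5 of 89, or 5.62%.

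The tiles that fell in that fit differed in the age at which they became low. The tile with the smallest adjusted p, chr17:30743501-30743600, was at 92.6%, 64.6%, 41.8% and 32.6% in developmental nulls at 20 days, 8 weeks, 4 months and 6 months. In controls of those ages it was at 83.3%, 43.1%, 21.4% and 9.84%. Each genotype was lower at each later age, and the slope was -21.2 ± 2.14 points per doubling (SE, limma adjusted p = 0.0128 with the level filter and 0.114 without). In WGBS its site, chr17:30743497-30743896, was at 9.09% and 6.44% in adult nulls and 26.5% and 21.6% in controls.

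Other tiles had fallen most of the way by 8 weeks in 1 or both genotypes. The tile chr15:75253701-75253800 was at 94.7%, 7.74%, 8.65% and 8.13% in developmental nulls and 92.1%, 10.1%, 12.0% and 5.52% in controls, in order of age. The tile chr16:4701201-4701300 was at 51.9%, 13.0%, 8.51% and 4.69% in developmental nulls and 53.4%, 17.2%, 7.69% and 9.82% in controls. In both, 1 library of each genotype, the youngest, stood far above the rest. The tile chr14:100728201-100728300 was at 86.3%, 16.0%, 21.4% and 13.3% in developmental nulls and 82.4%, 70.0%, 10.0% and 0% in controls, so that at 8 weeks the control was still high and the developmental null was not. These tiles were picked from the 10 after their values were seen. The age slope of the member tiles and their WGBS difference share no library; the part of age in the WGBS difference cannot be told apart from genotype, because no WGBS control was as old as the adult nulls.

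Livers with partial loss of the genes lay near the other adult libraries. Over the 50 tiles with a value in all 27 libraries, the mean was 19.3% and 24% in FoxA1L/L;FoxA2L/+ livers, 19.3% and 20.6% in FoxA1L/+;FoxA2L/+ livers, 24.8% in the developmental null and 22.5% in the control, all at 8 weeks. Day 7 triple nulls were at 16.4%, 16.0% and 18.1% over the same 50 tiles and their controls at 19.2%, 19.2% and 21.4%. The lowest of the 27 libraries was a day 7 triple null, and the 2 highest were the 20-day control at 35.0% and the 20-day developmental null at 33.9%.

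HNF6 peaks lay over the sites more often than over FoxA sites in general, in each of the 7 peak lists. In the 2 adult null lists a peak overlapped 126 and 161 of the 1180 sites, or 10.7% and 13.6%, against 6.03% and 8.56% of all sites. In the 2 developmental null lists 38 and 16 sites had a peak, or 3.22% and 1.36%, against 1.66% and 0.939% of all sites. In the 3 control lists 162, 125 and 41 sites had a peak, or 13.7%, 10.6% and 3.47%, against 8.02%, 6.54% and 1.89% of all sites. Wilson 95% intervals, which cover counting error only, ran from 9.04% to 12.6% and from 11.8% to 15.7% for the adult nulls, and from 11.9% to 15.8% for control 1. The lists held 1188 to 5767 peaks, and a library with more peaks had the higher share within each group.

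A peak in at least 2 control lists covered 116 sites, or 9.83% (Wilson 95% interval 8.26% to 11.7%), against 5.83% of all sites and 2.82% of the authors' listed sites. Of these 116 sites, 6, or 5.17%, had a peak in neither adult null list and 77, or 66.4%, in neither developmental null list. The same shares were 8.86% and 68.2% among the 1670 FoxA sites of all kinds with a peak in at least 2 control lists. Adult null lists came from another version of the peak caller and had median peak widths of 307 and 320 bp, against 82 to 150 bp in the other lists, and developmental null lists were among the shortest. The part of the caller and of list length in these counts was not tested, and no test of the shares was made.

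**Figure D5:**
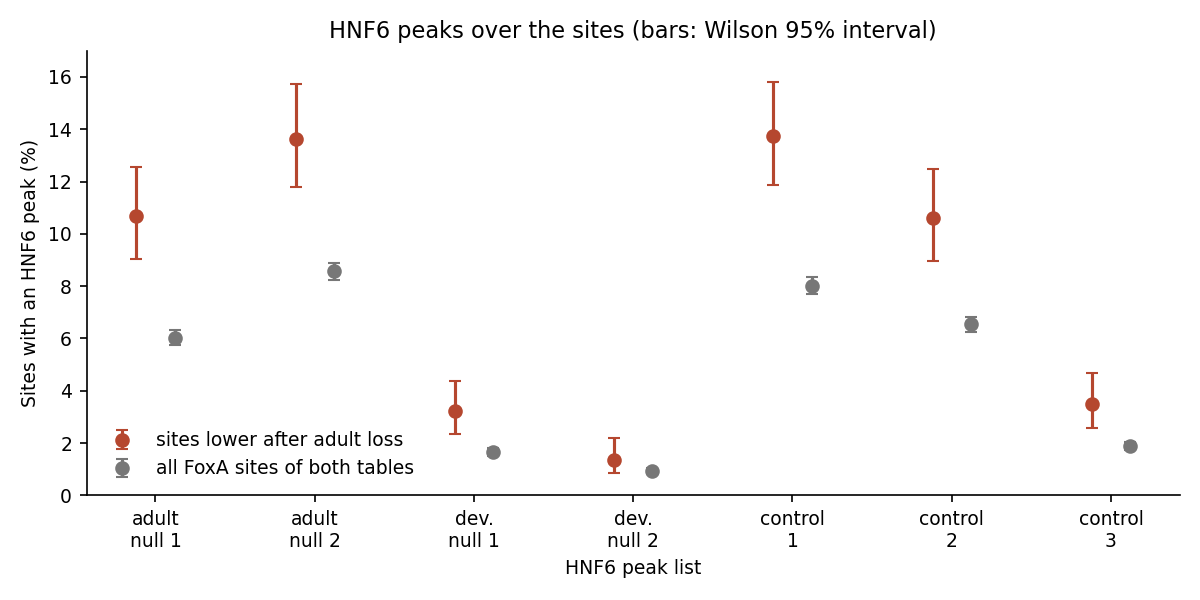
Share of sites, in percent, overlapped by an HNF6 peak in each of 7 peak lists, for the 1180 sites lower after adult loss and for all 28654 FoxA sites of both tables. Bars are Wilson 95% intervals; the members' share lies above that of all sites in every list, from 1.36% against 0.939% in developmental null 2 to 13.7% against 8.02% in control 1.

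WGBS values of members with and without HNF6 peaks are given as a description only, since the rule fixed how low the adult nulls had to be. The 116 sites with a peak in at least 2 control lists had a median control level of 13.1%, a median adult null minus control of -9.26 points and a median developmental null minus control of -4.38 points. The 975 sites with no peak in any list had a median control level of 23.2%, and their medians were -10.3 and -3.10 points. Peaks in every control list covered 39 sites, and of these the widest separation was at chr12:80632467-80632866. It was at 0% in both adult nulls, 6.45% and 9.09% in developmental nulls, and 16.7% and 14.8% in controls. At chr16:38279924-38280323 the adult nulls were at 30.2% and 27.5%, and the developmental nulls, at 45.9% and 47.8%, overlapped the controls at 47.8% and 43.3%. At chr16:88252624-88253023 both adult nulls were at 0%, the developmental nulls at 3.23% and 4.55%, and the controls at 11.5% and 10.7%. The order of the 3 groups thus differed between HNF6-bound sites as it did among the rest.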

How the data were processed

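Methylation in the deposited WGBS and RRBS tables is a fraction of 0 to 1, shown here as percent. The submitters' processing notes name Trim Galore 0.3.3, BSMAP 2.74 and mm9, and do not say how reads were summed over sites or tiles. In the deposited adult WGBS table a column with the header of developmental null 1 equalled control 2 at 100% of common sites and was used for that check only. HNF6 peaks and their fold enrichment, a ratio of ChIP to local background, were deposited by the authors per library, called against input with MACS 1.4.3 (adult nulls) or MACS 2.1.1.20160309 (the others), per the file headers; filtered ChIP tags numbered 16760874 to 30469386.

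Sites were joined by position, and peaks counted when they overlapped a site by 1 bp, in Python 3.11.15. Tiles were tested on the percent scale with limma 3.58.1 in R 4.3.3, with a variance trend, the spread of all 27 RRBS libraries (for the age slope, of the 8 of the age series) and Benjamini-Hochberg adjustment over all tiles tested; the fits were checked on simulated data. A score over the members received no p-value. Sites named are the 10 with the widest separation, those at the ends of control level and of developmental difference, those beside the threshold, and those with HNF6 in all control lists; tiles named are those in the widest-separated sites measured in all 27 libraries, those with the largest mean difference over the 3 adult comparisons, and others as said in the text. Chromosome 18 was left out of naming. The members, lists and tests were chosen with earlier results of these data known. The reference tables at hand are of another genome build, so sites carry no gene names. HNF4A and H3K27ac libraries were not analysed here.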

Additional observations from a re-analysis of the deposited data

Results flagged for a closer look

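The mean over tiles inside the sites differed from controls in opposite directions in 2 designs. It was lower in every day 7 triple null than the control mean, by a mean of -3.93 points, and higher in the developmental null than in the control at each of 4 ages, by a mean of 2.32 points (0.27 points at 20 days). By tile the developmental difference had a median of -0.09 points, with 29 of 59 tiles above 0. In other unlisted sites with a control mean of 10% to 50% the directions were the same, with means of -2.81 points at day 7 and 2.18 points for the developmental difference. The difference between these effects was not tested, and the 2 designs differ in Foxa3, age, virus and tiles measured.

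Among 34 groups of 4 libraries of the age series that were checked, 3 held a library far from the other three, where chance gives about 1 in 20. The developmental null at 6 months was at 15% at chr3:30165901-30166000, against 25.9% to 27.8% at the other ages. The 20-day control was at 17.9% at chr12:58545501-58545600, against 6.96% to 8.59% later, and at 72.7% at chr3:145563101-145563200, against 4.00% to 11.1% later. The libraries of a group differ in age and are not replicates of 1 age.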

How the results depend on the processing

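In all 144 other settings were tried, of which 118 stayed near the value reported. A separation of 0.10 or 0.20 left 197 or 13 sites; at 0.10 the median WGBS difference was -16.3 points for adult nulls and -2.40 for developmental nulls. Leaving out 1 WGBS library gave -10.4 to -9.45 points for adult and -3.34 to -2.74 for developmental nulls. The day 7 tile median was -3.61 points with tiles overlapping a site by at least 1 bp and -4.44 to -3.59 with 1 library left out. The day 13 median was 0.78 in sites with a separation of at least 0.10, -2.36 at mean levels of 5% to 95%, and -2.78 to 0.0165 with 1 library left out. The hepatectomy median ran from -1.79 to 1.58, and that of the age series from -1.34 to 2.41. The age slope was -2.68 with 1 bp overlap, -2.04 at levels of 5% to 95%, with 10 tiles called, -2.26 in controls alone and -2.32 to -1.56 with 1 library left out. The age series called 1 member tile at levels of 5% to 95% (514 higher and 89 lower of all 193825 tiles) and 0 to 2 with 1 library left out. The 2 come without the 20-day control (1390 higher and 597 lower of all 369462 tiles). There was 1 each without the developmental null at 6 months (703 and 280 of all tiles) or at 8 weeks (729 and 275). The mean HNF6 share in adult null lists was 9.41% with the peak's middle inside the site and 8.90% for peaks at or above the median fold. The cause of these moves was not tested.

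Replicate numbers were not taken to pair the samples in the main fits. In the adult comparisons no same-numbered pair correlated over 0.1: deviations correlated by -0.0076 to 0.0108 at day 7, -0.0004 at day 13 and -0.037 and -0.025 after hepatectomy. In the age series a number stands for an age, so each developmental null had a control of its own age by design, which the main fit did not use. The correlations there were 0.366 (20 days), 0.060 (8 weeks), 0.109 (4 months) and 0.149 (6 months). The 4-month developmental null correlated best with the 6-month control. With the replicate block the hepatectomy median was 0.87 points, the age series called 2 member tiles and, of all tiles, 2149 higher and 1018 lower (650 and 231 without it), and the other medians and counts of called member tiles were those reported. At an unadjusted p under 0.05 the block gave 1 higher and 4 lower of 82 hepatectomy member tiles, against 11481 and 13495 of all 482859. It gave 5 lower of 77 at day 7 (8977 of all 480615) and 2 of 71 at day 13 (11933 of all 442000). Without coverage the precision of a level cannot be given.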

Other observations

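Across tiles, the WGBS control level of a site and the RRBS control level of its tile correlated with Pearson's r of 0.42 over 77 tiles at day 7, 0.51 over 71 at day 13 and 0.52 over 82 after hepatectomy (Spearman's rho 0.30, 0.29 and 0.39). The size of the WGBS difference and of the RRBS difference of the same tiles had r of 0.21, -0.19 and 0.33 and rho of -0.04, -0.25 and 0.06. The day 7 and day 13 differences of 65 tiles had r of -0.03. Tiles in 1 site share their source and are not replicates, a tile covers a part of its site, and the depth behind each value is unknown.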
